A study of Homo sapiens with 6 samples.

Results

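The genes described here encode proteins of the spliceosomal small nuclear ribonucleoproteins (snRNPs). They were chosen by name: every probe for cell RNA whose gene name starts with SNRP, SF3A, SF3B or PRPF, or is one of LSM2 to LSM8, LSM10 and LSM11. This gave 43 of the 36328 gene names on the array, read by 64 probes, and the brightest probe over the 6 arrays stood for each gene. RNA was precipitated with an antibody against m3G and m7G caps from MOLT-4 cells, an established line from a T-cell acute lymphoblastic leukaemia, and hybridised in 1 colour. The cells of 3 samples had received an empty vector (mock) and those of 3 samples a vector for NUDT16, a decapping enzyme. The comparison addresses which capped transcripts change in the precipitate when NUDT16 is supplied. The labels do not say whether the samples of a group came from separate cultures, so p-values measure the spread between these samples only. RNA from before the precipitation was not analysed here, so less of a transcript and less of its capped form cannot be told apart.

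Each spliceosomal snRNP is an RNA wrapped in a ring of Sm proteins, with further proteins that belong to that particle alone. The U1 particle recognises the 5′ splice site, U2 the branch site, and the U4, U5 and U6 particles join as a tri-snRNP before catalysis. After the Sm ring has formed on an snRNA in the cytoplasm, the RNA's cap is hypermethylated from m7G to m3G. U6 differs: it carries a ring of Lsm proteins and no m3G cap. The messenger RNAs measured here, which encode these proteins, carry m7G caps like other messenger RNAs.

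The probes of 6 members are shown first, because the differences between the groups ran with the base composition of the probe. They are printed 5′ to 3′ as the array files list them, with G and C in capitals. The first 3 belong to members whose values were lowest in NUDT16 relative to mock arrays. The last 3 belong to members picked on the other side of 0, which are not the highest there. LSM2, with a larger difference of 0.48, has a probe with 41.7% G and C, the same share as that of SF3B1.
PRPF38B: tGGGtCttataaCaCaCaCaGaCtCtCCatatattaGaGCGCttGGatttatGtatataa
PRPF4B: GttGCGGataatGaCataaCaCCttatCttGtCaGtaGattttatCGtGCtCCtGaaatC
SF3B1: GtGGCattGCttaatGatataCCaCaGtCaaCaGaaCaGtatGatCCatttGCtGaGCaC
SNRPB: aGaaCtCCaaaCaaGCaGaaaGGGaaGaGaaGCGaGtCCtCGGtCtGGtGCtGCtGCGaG
SNRPD2: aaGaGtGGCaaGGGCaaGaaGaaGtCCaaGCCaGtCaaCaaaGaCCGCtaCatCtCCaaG
LSM4: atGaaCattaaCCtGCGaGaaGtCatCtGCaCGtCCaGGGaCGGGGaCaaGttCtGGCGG
The first 3 hold 21, 23 and 25 G or C among 60 bases, and the last 3 hold 33, 30 and 33. On hg19 the PRPF38B probe lies at chr1:109238756-109238815, the PRPF4B probe at chr6:4056609-4056668 and the SNRPB probe at chr20:2446401-2446460. The SNRPD2 probe lies at chr19:46190874-46190933. The SF3B1 probe (chr2:198285246-198285791) and the LSM4 probe (chr19:18420651-18423452) each span an intron.

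Values are log2 processed signals minus the same array's 75th percentile over the 6582 probes that were well above background on all 6 arrays. The 6 arrays differed in brightness. Between 39.3% and 52.0% of spots for cell RNA were well above background on 5 arrays, and 14.6% on NUDT16 replicate 2. The unscaled median log2 signal of the tested members was 6.10 on that array and lay between 10.8 and 11.9 on the other 5. Of the 43 members, 32 were well above background on NUDT16 replicate 2 and 40 to 43 on each other array. Of 16 T-lineage markers, 14 were well above background on all mock arrays, CD3D, CD3E, LCK and DNTT among them. Of 6 B-lineage markers 2 were, and of 5 myeloid markers 0. Both probes named NUDT16 stayed below the detection limit on all 6 arrays, those of the NUDT16 group included, so they give no check of the transfection. Levels of different genes are not compared, since each probe has its own brightness.

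No snRNP protein gene passed the test between NUDT16 and mock arrays. Of the 43 members, 40 were tested, being well above background on every array of at least one group. With limma and Benjamini-Hochberg adjustment over 17765 probes, 0 of the 40 were called, where 0.00563% of all tested probes were called (1 probe, of no member). No member had an unadjusted p under 0.05, the smallest being 0.125 (PRPF38B), and 0.045% of all tested probes did. In no member did the 3 NUDT16 values lie wholly above or below the 3 mock values, as they did for 0.591% of all tested probes. The count was 12 when NUDT16 replicate 3 was left out, against 26.5% of all tested probes, and 10 when mock replicate 1 was left out, against 19.8%. It was 2 without replicate 2 of both groups (6.91%). The median difference (NUDT16 minus mock) was -0.19 over the 40 members and -0.11 over all tested probes. It was below 0 for 25 of the 40 members, against 56.8% of all tested probes, with 4 members at -1 or lower (7.05% of all tested probes were) and 0 at 1 or higher (1.29%). Where detection on all 6 arrays was required, 20 of 32 members and 40.7% of the 6582 probes were below 0, with medians of -0.19 and 0.16. The members' standard errors in this fit, which leaves the replicate number out, ranged from 0.57 to 1.10. With the replicate number as a block they ranged from 0.30 to 0.46.

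Same-numbered arrays shared a slide and varied together, so the differences within each number are given beside the group difference. The members' median difference was -0.18 for replicate 1, -0.63 for replicate 2 and 0.16 for replicate 3. It was -0.36, 0.09 and -0.06 over all tested probes. Lower in the NUDT16 array of all 3 numbers were 13 of 40 members, against 27.5% of all tested probes. Higher in all 3 were 10 of 40, against 15.9%. Over the 32 members well above background on all 6 arrays, 9 were lower and 9 higher in all 3, against 19.3% and 27.0% of such probes. The higher members were LSM2, LSM4, LSM7 and LSM10 and also SNRPA, SNRPB, SF3A2, SF3B5, PRPF8 and PRPF31.

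**Figure D1:**
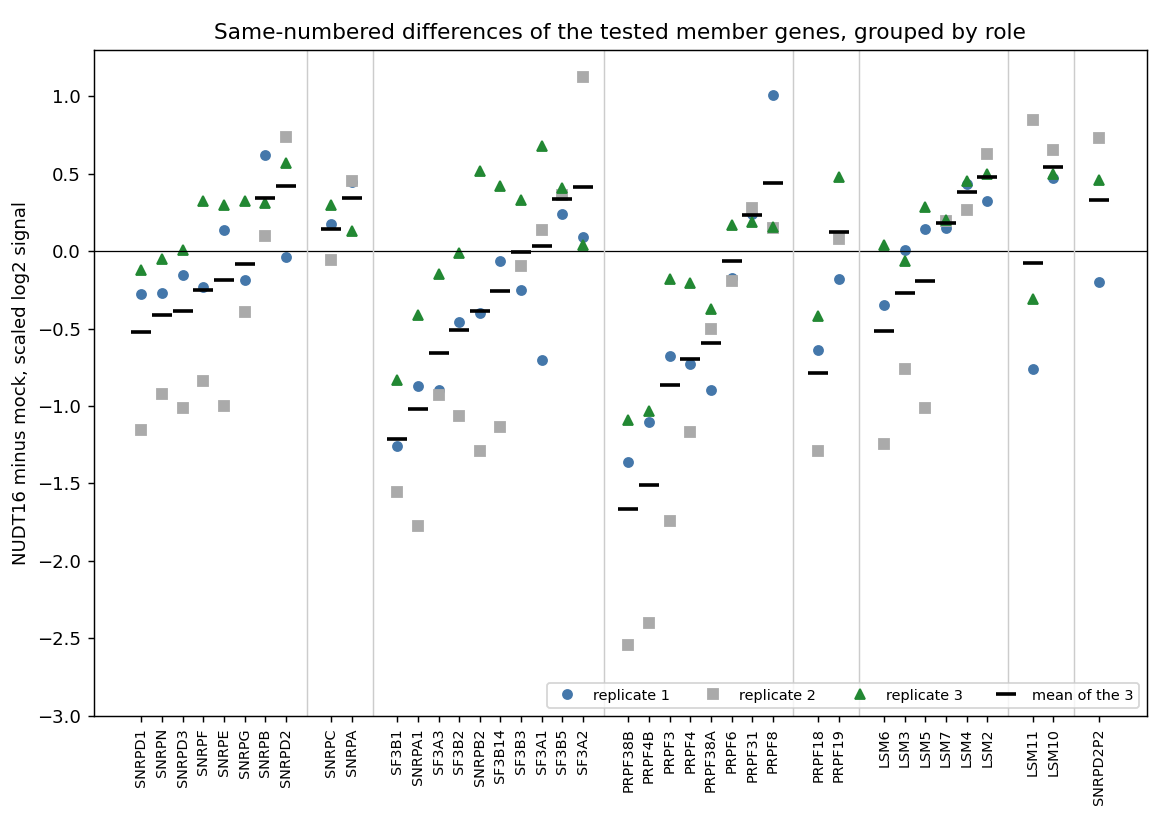
Difference of scaled log2 signal, NUDT16 minus mock, for the tested members described here, with 1 point for each same-numbered pair of arrays and a bar at their mean. Members are grouped by role from left to right (Sm core, U1, U2, tri-snRNP, activation and second step, U6 Lsm, U7 Lsm, pseudogene), and the points of replicate 2 reach from -2.54 (PRPF38B) to 1.12 (SF3A2).

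The Sm core genes, whose products form the ring shared by U1, U2, U4 and U5, all were well above background on 6 arrays, and 0 of 8 were called in either direction. Their median difference was -0.22, with 6 below 0 and 2 above. SNRPD1 had the lowest. Its values were 1.28, 3.17 and 2.02 on mock replicates 1, 2 and 3 and 1.0, 2.01 and 1.89 on the NUDT16 arrays. Mock replicate 2 stood above all other arrays and the groups overlapped, with a difference of -0.52 (SE 0.67). SNRPD1 was lower in 3 of 3 pairs, with differences of -0.28, -1.16 and -0.12. SNRPE read 0.72, 2.37 and 0.77 in mock and 0.85, 1.37 and 1.07 in NUDT16 arrays. SNRPF read 1.09, 2.08 and 0.90 in mock and 0.85, 1.24 and 1.23 in NUDT16 arrays. For both genes mock replicate 2 was again the highest array. The other mock arrays lay below all NUDT16 arrays for SNRPE and among them for SNRPF. Without mock replicate 2 the SNRPE difference was 0.36 and the SNRPF difference 0.11, against -0.19 and -0.25 with it.

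SNRPG, which sits between E and D3 in the ring, was highest on the arrays of replicate 2 in both groups. It read 2.73, 4.0 and 2.57 in mock and 2.54, 3.60 and 2.89 in NUDT16 arrays (difference -0.08, SE 0.64). SNRPD3 read -1.42, -0.90 and -1.77 in mock and -1.57, -1.92 and -1.76 in NUDT16 arrays, a difference of -0.39 (SE 0.58) to which the pair of replicate 2 gave -1.01. Here the NUDT16 arrays lay close together and 2 of the 3 mock arrays stood above them.

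SNRPB and SNRPD2 were the Sm genes with differences above 0. SNRPB encodes SmB and SmB′. Its values were 1.09, 0.00 and -0.39 in mock and 1.71, 0.09 and -0.08 in NUDT16 arrays, higher in 3 of 3 pairs by 0.62, 0.09 and 0.31 (difference 0.34, SE 0.70). Replicate 1 stood high in both groups. SNRPD2 read 1.79, 1.18 and 0.23 in mock and 1.76, 1.92 and 0.80 in NUDT16 arrays (difference 0.42, SE 0.65). SNRPN, an imprinted relative of SNRPB best known from neurons, read -1.61, -1.86 and -1.59 in mock and -1.89, -2.78 and -1.64 in NUDT16 arrays. Its mock values were the closest together of the Sm genes (SD 0.15, n = 3), and NUDT16 replicate 2 lay below all of the others. The difference was -0.42 (SE 0.60), and -0.08 without that array. SNRPN was lower in 3 of 3 pairs, with differences of -0.27, -0.92 and -0.05. The pseudogene SNRPD2P2, which the naming rule includes, had 0.33 (SE 0.63), with 0.73 in the pair of replicate 2. It was not well above background on NUDT16 replicate 2, so its value there is a bound.

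**Figure D2:**
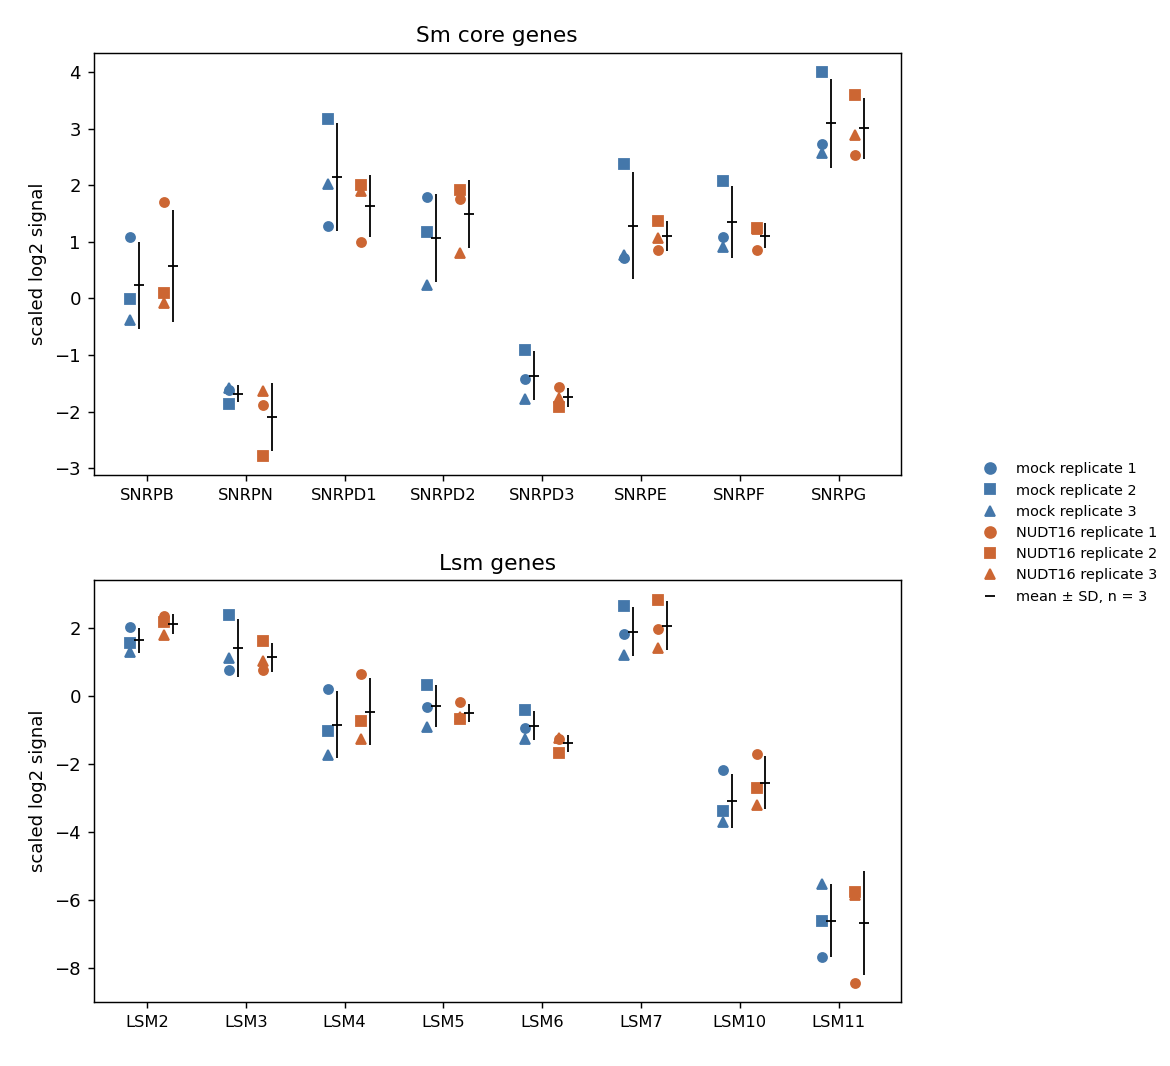
Scaled log2 signal on each array for the Sm core genes (top) and the Lsm genes (bottom), with mock arrays in blue, NUDT16 arrays in orange, a symbol for each replicate number and the mean with SD (n = 3) beside them. The groups overlap for every gene shown, and mock replicate 2 stands highest for SNRPD1, SNRPD3, SNRPE, SNRPF, SNRPG, LSM3, LSM5 and LSM6.

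Of the 5 U1 genes, 3 were tested and 0 were called, with a median difference of 0.14. SNRPA encodes U1-A, which binds a stem-loop of U1 RNA. It read -0.70, -2.20 and -1.60 in mock and -0.25, -1.74 and -1.47 in NUDT16 arrays, higher in 3 of 3 pairs (difference 0.34, SE 0.67). SNRPC, which encodes the zinc-finger protein U1-C, had 0.14 (SE 0.59). PRPF39 and PRPF40B passed the detection limit on 2 of 3 arrays in each group and were not tested.

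The U2 genes had a median difference of -0.32, with 7 of 10 below 0 and 0 called. SF3B1, the largest SF3b subunit, which holds the branch-site duplex and is recurrently mutated in blood cancers, was the lowest. Its values were -2.27, -0.08 and 0.88 in mock and -3.53, -1.64 and 0.04 in NUDT16 arrays. Each NUDT16 array was below its same-numbered partner, by 1.26, 1.55 and 0.83, yet the 2 groups overlapped because the replicates lay further apart than the groups. The difference was -1.22 (SE 0.98, limma adjusted p 0.999). It ran from -2.10 without mock replicate 1 to -0.31 without NUDT16 replicate 1. SNRPA1, which encodes the leucine-rich repeat protein U2-A′, read -1.94, -0.59 and -0.65 in mock and -2.82, -2.36 and -1.06 in NUDT16 arrays (difference -1.02, SE 0.69). It was lower in 3 of 3 pairs. SNRPB2, whose product U2-B″ binds U2 RNA together with U2-A′, had -0.39 (SE 0.60), with 0.52 in the pair of replicate 3.

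Of the SF3a genes, SF3A3 had -0.66 (SE 0.68) and was lower in 3 of 3 pairs. SF3A2 had 0.42 (SE 0.59), of which 1.12 came from the pair of replicate 2 and 0.09 and 0.04 from the others. SF3A1 was at 0.04, with pair differences of -0.70, 0.13 and 0.68. It was not well above background on NUDT16 replicate 2, so its value there is a bound. SF3B3 was at -0.00, SF3B2, which contacts RNA beside the branch site, at -0.51, and SF3B5, the smallest SF3b subunit gene here, at 0.34. SF3B2 was lower in 3 of 3 pairs, with -0.01 in that of replicate 3. SF3B14, now named SF3B6 in RefSeq, encodes the branch-point protein p14 and was at -0.26. SF3B4 passed the limit on 1 array of each group and was not tested.

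Of the 8 tri-snRNP genes 0 were called. Only PRPF31, PRPF4B and PRPF6 were well above background on all 6 arrays. The other 5 were not on NUDT16 replicate 2 and entered the test through the mock arrays, so no count or median is given for the group. The lowest differences of all members were found here. PRPF38B, a paralogue of a protein that joins the spliceosome before activation, read -4.38, -1.18 and -1.24 in mock and -5.74, -3.72 and -2.33 in NUDT16 arrays. The same-numbered differences were -1.36, -2.54 and -1.09, and the groups overlapped because mock replicate 1 was as low as the NUDT16 arrays. The difference was -1.66 (SE 1.01, limma adjusted p 0.999). PRPF38B was not well above background on NUDT16 replicate 2, so its value there is a bound and not a measured level. PRPF4B (PRP4K in RefSeq) encodes a kinase that phosphorylates tri-snRNP proteins. It read -3.59, -0.28 and 0.22 in mock and -4.69, -2.68 and -0.81 in NUDT16 arrays, with pair differences of -1.10, -2.40 and -1.03 (difference -1.51, limma adjusted p 0.999). For both genes the array of replicate 1 was the lowest of its group, in mock and in NUDT16 arrays. Leaving out mock replicate 1 gave -2.72 for PRPF38B and -2.70 for PRPF4B, and leaving out NUDT16 replicate 1 gave -0.76 and -0.53.

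The other tri-snRNP genes were closer to 0. PRPF3 and PRPF4, partners on the U4/U6 duplex, had -0.87 (SE 0.67) and -0.70 (SE 0.69), and PRPF38A had -0.59 (SE 0.63). All 3 were lower in 3 of 3 pairs and none was well above background on NUDT16 replicate 2. PRPF8, the large U5 protein at the catalytic centre, read -2.27, -3.77 and -1.19 in mock and -1.26, -3.62 and -1.03 in NUDT16 arrays. Its difference of 0.44 (SE 0.85) lay mostly in the pair of replicate 1, at 1.01, and it too was not well above background on NUDT16 replicate 2. PRPF31, a U4 protein mutated in retinitis pigmentosa, had 0.24 (SE 0.61) with pair differences between 0.19 and 0.28. PRPF6, which bridges U5 and U4/U6, had -0.06 (SE 0.67).

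PRPF19, the ubiquitin ligase of the activation complex that carries its name, differed little between arrays. It read 2.0, 1.49 and 1.38 in mock and 1.82, 1.57 and 1.86 in NUDT16 arrays (difference 0.12, SE 0.57). PRPF18, a factor of the second splicing step, read -2.95, -1.40 and -1.28 in mock and -3.59, -2.69 and -1.70 in NUDT16 arrays (difference -0.78, SE 0.71).

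The Lsm genes of the U6 ring had a median difference of -0.01 over 6 tested, with 3 on each side of 0 and 0 called. LSM2 read 2.05, 1.57 and 1.31 in mock and 2.37, 2.20 and 1.81 in NUDT16 arrays. It was higher in 3 of 3 pairs by 0.32, 0.62 and 0.50, but mock replicate 1 stood above NUDT16 replicate 3 (difference 0.48, SE 0.58). LSM4, whose product carries an arginine- and glycine-rich tail, read 0.22, -1.01 and -1.72 in mock and 0.66, -0.74 and -1.27 in NUDT16 arrays (difference 0.38, SE 0.73). LSM6 read -0.92, -0.42 and -1.25 in mock and -1.27, -1.66 and -1.21 in NUDT16 arrays (difference -0.52, SE 0.58). LSM3, LSM5 and LSM7 had -0.27, -0.20 and 0.18.

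No probe carries the name LSM8, the subunit that sets the nuclear ring apart. The RefSeq accession of a probe named NAA38 in the array files now belongs to LSM8, and that probe had -0.50 (SE 0.60). LSM1, which takes the place of LSM8 in the cytoplasmic ring that promotes decapping and which the rule leaves out, had -0.48 (SE 0.58). Both values were lower in the pairs of replicates 1 and 2 and higher in that of replicate 3.

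LSM10 and LSM11 replace SmD1 and SmD2 in the ring of U7, the snRNP that processes histone messenger RNA ends. LSM10 had the highest difference of all members. It read -2.17, -3.36 and -3.71 in mock and -1.70, -2.71 and -3.21 in NUDT16 arrays, higher in 3 of 3 pairs by 0.47, 0.65 and 0.50 (difference 0.54, SE 0.67, limma adjusted p 0.999). LSM11 was well above background on 3 mock arrays and 1 NUDT16 array and had -0.07 (SE 0.84), with pair differences of -0.76, 0.85 and -0.31. Its values on the other NUDT16 arrays, replicate 2 among them, are bounds. Without replicate 2 of both groups its difference was -0.53, which still includes a bound.

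The members varied with the replicate number in both groups. Each array's deviation from its group's mean was compared with that of its same-numbered partner. The correlation over the 40 members was 0.93, 0.67 and 0.92 for replicates 1, 2 and 3, and over all tested probes 0.84, 0.39 and 0.77. Over the 40 members, replicate 1 minus replicate 3 in mock correlated with the same difference in NUDT16 arrays at r = 0.96 (rho 0.95). These points share slides and probes, and genes are not replicates. Replicate 1 minus replicate 3 was -3.14 in mock and -3.57 in NUDT16 arrays for SF3B1, and -3.80 and -3.87 for PRPF4B. It was 1.94 and 1.92 for LSM4.

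When the fit took the replicate number as a block, the members' median standard error was 0.33 in place of 0.66, and still 0 of 40 were called, as against 0.00563% of all tested probes. The adjusted p in limma was 0.467 for PRPF38B, PRPF4B, SF3B1 and SNRPA1. These 4 had an unadjusted p under 0.05, all lower, where 8.94% of all tested probes were lower at that level, and 0 members were higher, against 0.816%. When both arrays of replicate 2 were left out and the block kept, a fit chosen with earlier results known, PRPF38B, PRPF4B and SF3B1 were called. Their differences were -1.23, -1.07 and -1.05 (limma adjusted p 0.00518, 0.0205 and 0.0239). That fit called 3.38% of all tested probes lower and 0.0675% higher. It has a single residual degree of freedom and gave every probe the same standard error, 0.30.

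The members' differences ran with the base composition of the probe. Over the 40 tested members the G and C share of the probe correlated with the difference at r = 0.54 (rho 0.52), and over all tested probes at r = 0.40 (rho 0.41). Within the pairs of replicates 1, 2 and 3 the members gave r = 0.54, 0.53 and 0.29, and all tested probes 0.30, 0.39 and 0.02. These are descriptions across probes that share arrays. The 13 members lower in all 3 pairs had a median G and C share of 43.3%, near the 42.5% of the 40 tested members. All tested probes had 43.3%. The 10 members higher in all 3 pairs had 54.2%. LSM2 and LSM7, with 41.7% and 40%, were the members of the higher group below 50%. After the trend with base composition had been removed from each array, the members' median difference was 0.05, against 0.04 over all tested probes, with 18 of 40 below 0. The removal also took out each array's level, and the median over all tested probes had been -0.11 before it. Signs and distances from 0 after the removal therefore include a shift common to all probes. PRPF38B was then at -1.32, PRPF4B at -1.15, SF3B1 at -0.89 and LSM10 at 0.26, all closer to 0 than before. LSM2, at 0.80, LSM7, at 0.55, and SNRPC, at 0.50, were among those farther from 0. So were SF3B2, at -0.73, and PRPF6, at -0.35, on the lower side. With the block as well, the smallest adjusted p among members was 0.508 in limma. The part of base composition in these differences was not tested beyond this.

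**Figure D3:**
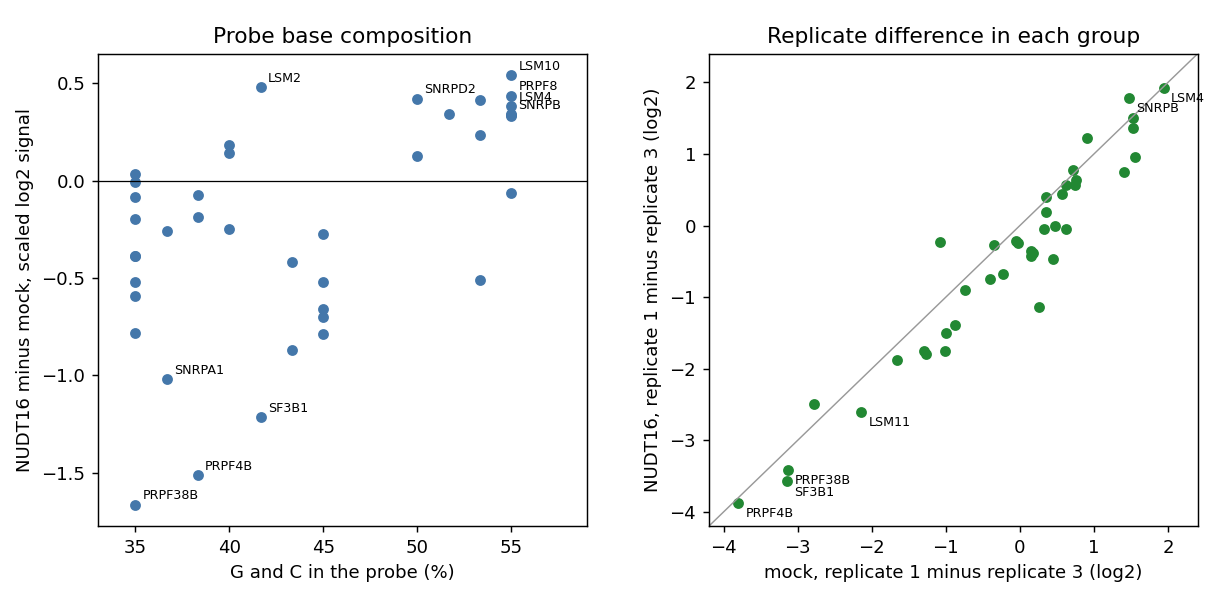
Left, difference between the groups (log2) against the share of G and C in the probe for the 40 tested members. Right, replicate 1 minus replicate 3 in mock (x) and in NUDT16 arrays (y), with the line of equality. Members with differences under -1 all have less than 45% G and C, and members lie close to the line at right, with r = 0.96.

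For 13 members several probes were tested, and 10 of these had all probes on the same side of 0. The SNRPD1 probes both gave -0.52, the LSM2 probes 0.48 and 0.51, and the 3 SNRPG probes -0.08, -0.14 and -0.19. The second probe of PRPF38B gave -0.87 against -1.66, and that of SF3A3 -0.16 against -0.66. The 4 SNRPE probes lay between -0.19 and 0.02. PRPF4B and PRPF18 had probes on opposite sides of 0 that differed by more than 1. For PRPF4B the probes at transcript positions 2611 and 2792 gave -1.51 and -1.44, and a probe at position 7391 gave 0.20 (SE 0.60). The distal probe read -2.19, -3.13 and -2.32 in mock and -2.63, -1.82 and -2.59 in NUDT16 arrays. It lacked the drop on replicate 1, and its pair differences were -0.45, 1.31 and -0.27. For PRPF18 the probe at position 1287 gave -0.78 and a dimmer one at position 185 gave 0.36, with 1.62 in the pair of replicate 2 and -0.22 and -0.31 in the others. For both genes the opposite sign thus came from the pair of replicate 2.

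**Figure D4:**
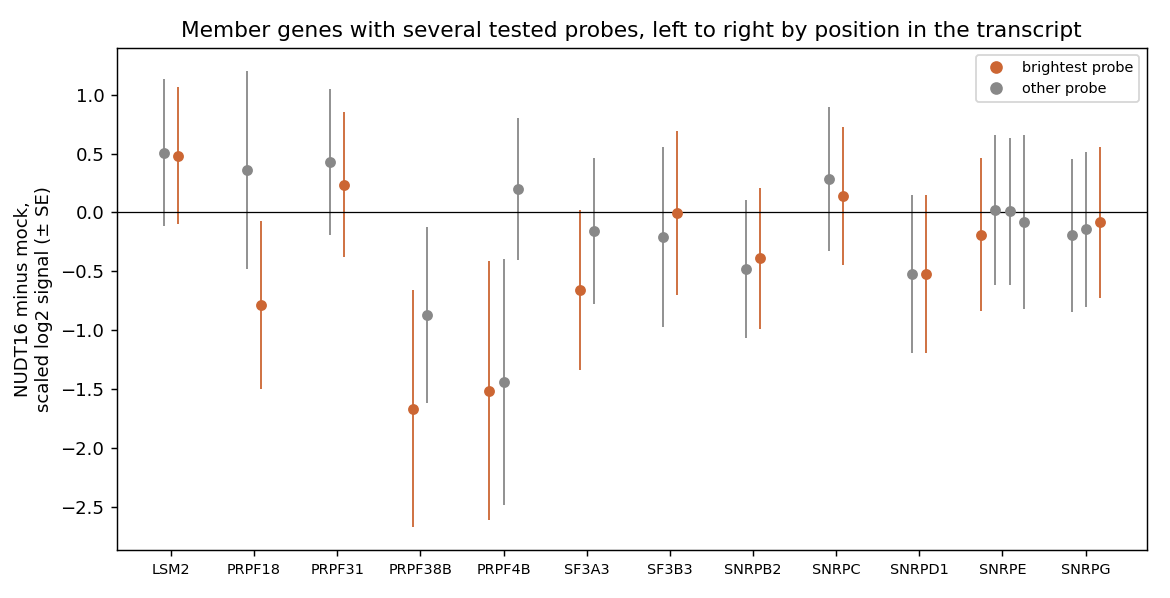
Difference between the groups with its standard error for each tested probe of members described here that have several, in order of position along the transcript. PRPF4B and PRPF18 each have a probe on either side, more than 1 log2 unit apart.

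Other genes of the pathway, listed by role, gave 0 called in either direction. Of 27 tested snRNP genes outside the naming rule, 20 were below 0, with a median of -0.20, beside the 56.8% of all tested probes. After removal of the base-composition trend 13 were, with a median of 0.05, beside 8325 of the 17765 tested probes with a median of 0.04. DHX15, the helicase that disassembles spliceosomes, had -1.16 (SE 0.73), and SNRNP48, a protein of the minor spliceosome, -1.21 (SE 0.88), with -2.61 in the pair of replicate 2 and -0.05 in that of replicate 3. Of 21 genes of snRNP assembly, cap hypermethylation and transport, 18 were below 0, with a median of -0.53. After removal of the trend 17 of the 21 still were, with a median of -0.21. The import receptor KPNB1 read 0.43, 1.21 and 1.99 in mock and -0.86, -1.43 and 1.66 in NUDT16 arrays (difference -1.42, SE 0.83). PHAX, the export adaptor of capped snRNA, read -3.55, -0.86 and -1.40 in mock and -4.61, -2.77 and -2.34 in NUDT16 arrays (difference -1.30, SE 0.84). Of 17 further genes of the activation complex and its helicases, 16 were below 0, with a median of -0.60, CDC5L at -1.29 (SE 0.85) and PLRG1 at -1.12 (SE 0.75). After removal of the trend 14 of the 17 still were, with a median of -0.37. PLRG1 had 0.12 in the pair of replicate 3, and -0.50 as its difference without NUDT16 replicate 2. SNRNP48, CDC5L and PLRG1 were not well above background on that array, so their values there are bounds. Of these 3 lists only 20, 8 and 9 genes were well above background on all 6 arrays, and 14, 7 and 8 of them were below 0, beside 40.7% of all such probes. Their medians were -0.19, -0.55 and -0.54, beside 0.16 over all such probes. The lists' other tested genes were well above background throughout a single group only. The counts and medians over all tested genes of a list thus depend in part on the detection filter. DHX15, SNRNP48, KPNB1, PHAX and CDC5L were lower in 3 of 3 pairs, as were 27.5% of all tested probes.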

How the data were processed

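The 6 arrays (Agilent design 039494, hg19) were read with Agilent Feature Extraction 10.7.3.1, per the file headers. The deposited scanner files give each spot's intensity on a linear scale. Feature Extraction had subtracted background, detrended and replaced dim spots by surrogates, with no normalization between arrays, per the file headers. After scaling, probes near background read higher on NUDT16 replicate 2: both NUDT16 probes, dim everywhere, were at -5.70 and -5.74 there and at -8.89 or lower elsewhere. The value table deposited by the authors holds log2 values. Its making is not given in the sources used here, its column medians lay between 6.18 and 6.22, and it served as an alternative.

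Control and outlier spots were left out and spots of a probe averaged (13 probes without a usable spot were dropped). A probe was well above background where over 50% of its spots were. The scaling used commonly detected probes because on 4 arrays under 50% of spots, and on NUDT16 replicate 2 under 25%, were above background. Tests used limma 3.58.1 (R 4.3.3, two-sided, Benjamini-Hochberg, threshold 0.05, no block), and the code was tested on simulated data. Slide, scan and replicate number coincide. The numbers pair the arrays, since same-numbered deviations correlated above 0.1 in every pair. Of the 64 member probes, 60 matched a RefSeq accession (GRCh38.p14, names only) and 4 of these carry another symbol now. Exon and coding positions are not given here.

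The members, lists and tests were chosen with earlier results of these data known. Named in detail are the Sm core genes, the 2 genes of smallest p in each other list, the 5 of smallest p in each direction among members detected on all arrays, and members with discordant probes, with others by role chosen after their values were seen. A member counted in the totals is not reported here by itself.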

Additional observations from a re-analysis of the deposited data

How the results depend on the processing

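Over all alternatives 0 members were called, except 3 without replicate 2 in both groups. Probes called over the whole array were 0 without scaling, with normexp, without the detection filter, with detection required on all 6 arrays, with the authors' table and with the base-composition trend removed under the replicate block, 613 without replicate 2 in both groups, and 0 to 1 when an array was left out. In these first 6 fits limma found an unadjusted p under 0.05 for 1, 1, 160, 2, 10 and 1642 probes. The median member difference was -0.87 with the median shift and -1.19 without scaling. Both move all probes alike and leave the members at -0.09 relative to all probes (-0.78 and -1.10), so these, and the signs that follow from them, are the common shift. Relative to all probes the member median was lowest without the filter, at -0.82 (-0.08 in members and 0.73 in all probes). It was highest without replicate 2 in both groups, at 0.27 (0.04 and -0.22). When an array was left out it ranged from -0.35 to 0.17, above 0 only without mock replicate 2, and the member median itself from -0.35 to -0.04. Members without overlap between the groups numbered 2 without replicate 2 in both groups (6.91% of all tested probes), 1 with the base-composition trend removed, with and without the block (1.28%; PRPF38A, dim on NUDT16 replicate 2), and 0 to 12 when an array was left out. The highest counts were 12 without NUDT16 replicate 3 (26.5% of all tested probes) and 10 without mock replicate 1 (19.8%). The replicate block changed no call of a member.

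With the median shift and without scaling, all 40 members were below 0, against 25 before. Among the genes named in detail 8 turned: LSM10 (-0.14 and -0.45), LSM2 (-0.20 and -0.51), SNRPD2 (-0.25 and -0.57), SF3A2 (-0.26 and -0.58), LSM4 (-0.29 and -0.61), SNRPA (-0.33 and -0.65), SNRPB (-0.34 and -0.66) and PRPF19 (-0.55 and -0.87). Removal of the base-composition trend also took out each array's level. After it, with and without the block, SNRPF was at 0.11, SNRPE at 0.17, SNRPG at 0.26 and LSM11 at 0.29. Without replicate 2 in both groups they were at 0.047, 0.22 and 0.070 for SNRPF, SNRPE and SNRPG. With normexp LSM11 was at 0.71 and PLRG1 at 0.013; the cause was not tested. Leaving out an array gave ranges across 0 for LSM11 (-0.61 to 0.80), LSM4 (-0.17 to 0.91), SNRPA (-0.11 to 0.74), SNRPB (-0.23 to 0.77), SNRPE (-0.47 to 0.36), SNRPF (-0.48 to 0.11) and SNRPG (-0.38 to 0.36). Of the values of 29 named genes under the alternatives, 560 kept their direction and their side of the threshold, 40 turned and 4 passed it. Base-composition removal was added after the data were seen. Signal over background on NUDT16 replicate 2 limits the members that were dim there.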
